A study of Bos taurus with 6 samples.

Results

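Lysosomal genes were followed in bovine embryos that had or had not formed a blastocyst. The set was a list of 44 genes chosen by name: lysosomal membrane proteins and transporters, proteases, glycosidases, sulfatases, lipid hydrolases with their activators, subunits of the proton pump, and the transcription factor TFEB. The platform's annotation held probe sets for 41 of the 44 genes, and none for GLA, IDS and GM2A. These 41 genes had 56 of the 24036 probe sets of the value table, and 54 of the 56 varied between arrays and were tested. For each gene the probe set with the highest mean over the 6 arrays was used, unless stated otherwise, and 8189 genes were tested in this way.

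All embryos were Bos taurus embryos produced by in vitro fertilization, and all had compacted as morulae. Blastocysts showed a blastocoele and a clear inner cell mass on day 8, and late degenerative embryos were those that had stopped short of this stage. Each group had 3 pools of 20 embryos, lettered A to C, and each pool was hybridized to its own Affymetrix Bovine Genome Array. A pool mixed embryos of several cows and bulls, so a value is an average over many embryos of one grade. Each pool held other embryos, and p-values measure the spread between pools. Values are GCRMA expression values on the log2 scale, with a floor of 2.12, and all differences are degenerative embryos minus blastocysts, so that a difference of -1 is a 2-fold lower value. Over all probe sets of the value table, those without variation included, arrays correlated with r between 0.979 and 0.995 within blastocysts. Within degenerative embryos, where pool A stood apart, r was between 0.951 and 0.990.

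Lysosomes are acidic vesicles in which proteins, glycans and lipids delivered by endocytosis and autophagy are broken down. A vacuolar proton ATPase acidifies the lumen, soluble hydrolases cut the cargo, and transporters in the limiting membrane return the products to the cytosol. In early embryos, lysosomes take part in clearing maternal proteins, and the trophectoderm takes up material from its surroundings by endocytosis.

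Of the 41 lysosomal genes, only CTNS, which encodes cystinosin, the exporter of cystine from the lysosome, was called by limma at an adjusted p of at most 0.15. CTNS fell by 1.06 on the log2 scale in degenerative embryos, a 2.09-fold lower level. The list as a whole was split evenly, with 21 genes lower and 20 higher and a median difference of -0.03, where the median over all genes was 0.02. Differences ranged from -1.32 to 1.50. Among all probe sets tested, 0.0158% were called lower by limma, which is 3 of 18937, and SAM at a false discovery rate of 15%, the method and rate of the study, called 0.333% lower. In bulk RNA, fewer cells of a type and less RNA per cell cannot be told apart.

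Below the threshold, the lysosomal genes were set against all genes. An unadjusted limma p under 0.05 was found for 2 genes in the lower direction (4.88%) against 5.65% of all genes, and for 3 in the higher direction (7.32%) against 4.68%. SAM at a rate of 25% called CTNS and no other member, 2.44% against 4.73% of all genes lower, and 0 members higher against 0.501%. A difference of at least 2-fold was seen for CTNS, ARSB, CTSC and CTSK, which is 9.76% of the members against 11.0% of all genes. In 7 members every degenerative pool was lower than every blastocyst pool (17.1% against 9.16% of all genes), and in 3 every one was higher (7.32% against 8.99%). The former count was 11 when blastocyst pool A was left out and 13 when degenerative pool B was. The latter count was 5 when blastocyst pool C was left out and 10 for degenerative pool C. With fewer pools, separation is easier for any gene. The shares of all genes with the same pools left out are not given here, so these counts have no background to be set against.

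**Figure D1:**
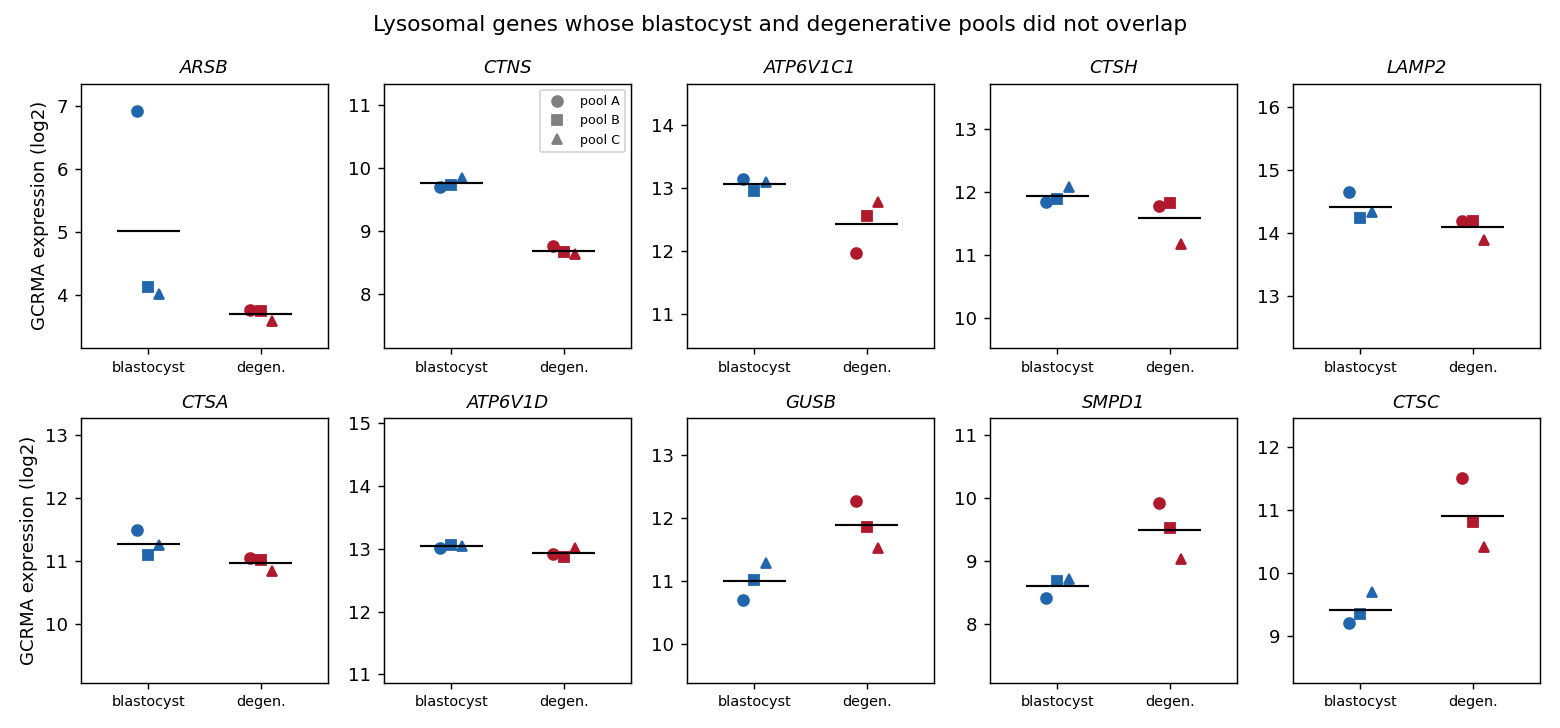
GCRMA expression on the log2 scale (y axis) in the 3 blastocyst pools (blue) and 3 degenerative pools (red) for the 10 lysosomal genes whose groups did not overlap. Symbols mark the pool letter and lines the group means. Each panel spans the same range, and CTNS shows a gap of 0.93 between tight groups, whereas ARSB rests on the high value of blastocyst pool A.

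CTNS was at 9.69, 9.73 and 9.84 in blastocyst pools A, B and C, and at 8.76, 8.67 and 8.63 in degenerative pools A, B and C. The lowest blastocyst pool was 0.93 above the highest degenerative pool. The group means were 9.75 ± 0.08 (SD, n = 3 pools) and 8.69 ± 0.07 (SD, n = 3), and the difference was -1.06 (standard error 0.07, 95% interval -1.23 to -0.89, limma adjusted p = 0.120). By p it had rank 4 among the 18937 probe sets. The size of the difference was not unusual, since 778 genes, 9.50% of all, had a larger one. The spread within the groups was small: the pooled SD of CTNS was 0.0735, where the median was 0.332 over the lysosomal genes and 0.386 over all genes, and 8.71% of all genes had a smaller one. CTNS had been picked by the study from these same arrays, so its direction here is not independent evidence.

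The difference of CTNS kept its size when single pools were left out, between -1.10 and -1.02, but the limma call held only when degenerative pool A was the pool left out (adjusted p = 0.102). Leaving out any other pool gave an adjusted p of 0.163 to 0.567. With the pools paired by letter (replicate block) the difference was again -1.06, the adjusted p from limma was 0.491 and 0 members were called. Of the genes next to CTNS on its chromosome, TAX1BP3, which overlaps it in the annotation, had a difference of 0.15 (limma adjusted p = 0.737), and SHPK had -0.40 (adjusted p = 0.877). Neither neighbour was called.

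The other membrane proteins had differences below 0 as well, so that all 6 of this class were lower, with a median of -0.39. CTNS alone passed the test. Without degenerative pool A, 4 of the 6 were lower and the median was -0.15. LAMP2, a heavily glycosylated protein that lines the lysosomal membrane and serves as a receptor in chaperone-mediated autophagy, was at 14.65, 14.24 and 14.33 in the blastocyst pools and at 14.18, 14.18 and 13.89 in the degenerative pools. The groups were separated by only 0.05, and the difference of -0.32 (standard error 0.15, limma adjusted p = 0.626) became -0.20 without blastocyst pool A. LAMP1, the related and equally abundant component of that membrane coat in most cells, differed by -0.07, with a 95% interval of -0.37 to 0.24, and by 0.04 without degenerative pool A.

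MCOLN1, which releases calcium from lysosomes, was at 10.46, 10.56 and 10.83 in blastocysts and at 9.65, 10.53 and 10.27 in degenerative embryos. Pool A was the lowest of the degenerative pools, and the difference of -0.47 (limma adjusted p = 0.668) was -0.22 without it. CD63, a tetraspanin of late endosomes and lysosomes, likewise had its lowest value in degenerative pool A, 10.79, where the other degenerative pools were at 12.45 and 12.54 and blastocysts lay between 11.99 and 12.97. Its difference was -0.52 (limma adjusted p = 0.755), and 0.05 without that pool. SCARB2, the receptor that carries glucocerebrosidase to the lysosome, differed by -0.28 (limma adjusted p = 0.736), or -0.08 without degenerative pool A.

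**Figure D2:**
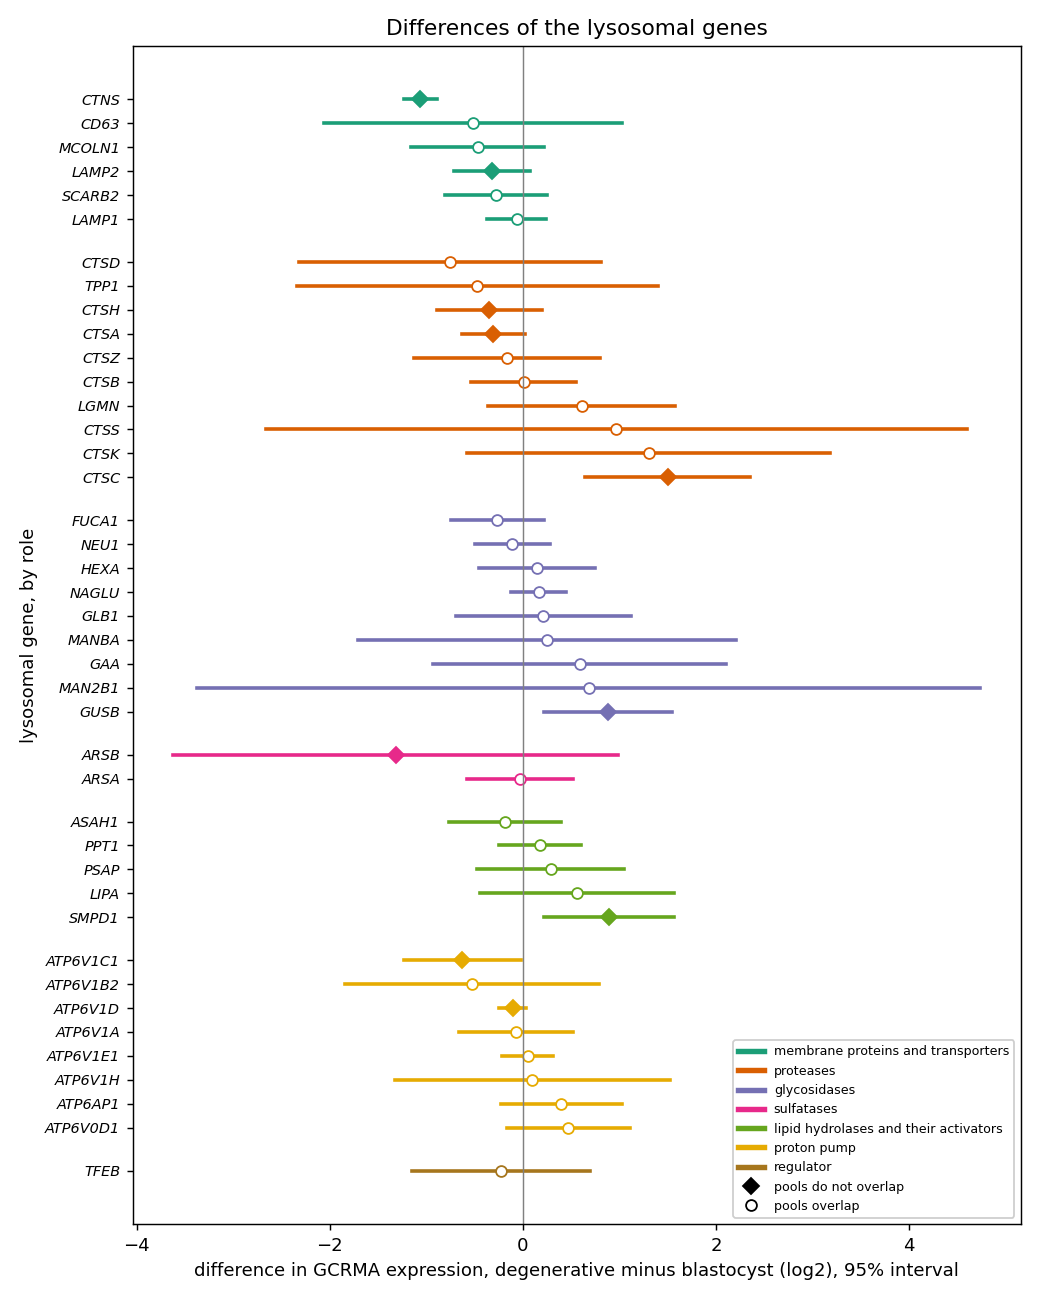
Difference in GCRMA expression (x axis, log2, degenerative minus blastocyst) with its 95% interval from limma for each of the 41 lysosomal genes (y axis), ordered by role. Filled diamonds mark genes whose pools did not overlap. The interval of CTNS runs from -1.23 to -0.89, and of the other genes those of CTSC, GUSB, SMPD1 and ATP6V1C1 leave out 0 as well, without adjustment for the number of genes.

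The proteases went both ways, with 5 lower and 5 higher and a median of -0.08, and none passed the test. CTSC, cathepsin C, an aminopeptidase that activates serine proteases of granules, had the highest difference of all lysosomal genes. It was at 9.20, 9.35 and 9.70 in the blastocyst pools and at 11.52, 10.81 and 10.42 in the degenerative pools. The groups were 0.72 apart, and the difference was 1.50 (standard error 0.33, 95% interval 0.64 to 2.36), a 2.82-fold higher level, with an unadjusted limma p of 0.00699 and an adjusted p of 0.470. CTSC thus differed more than CTNS, while its pools were spread more widely, with an SD of 0.25 in blastocysts and 0.56 in degenerative embryos.

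CTSK, cathepsin K, a collagenase best known from osteoclasts, was at 8.08, 9.18 and 9.99 in blastocysts and at 10.23, 11.40 and 9.53 in degenerative embryos. The groups overlapped, and the difference of 1.30 (standard error 0.72, limma adjusted p = 0.662) was 0.80 without degenerative pool B. LGMN, legumain, which cleaves after asparagine, was at 12.03, 11.78 and 12.09 against 13.32, 12.39 and 12.01, where the high value of degenerative pool A carried most of the difference of 0.61 (standard error 0.37, limma adjusted p = 0.694), which was 0.23 without it.

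CTSA, the protective protein that holds beta-galactosidase and neuraminidase in a complex, was at 11.48, 11.09 and 11.24 in blastocysts and 11.04, 11.01 and 10.84 in degenerative embryos. The groups did not overlap, with 0.05 between them, and the difference was -0.31 (standard error 0.12, limma adjusted p = 0.596), or -0.20 without blastocyst pool A. CTSH, an aminopeptidase, was at 11.83, 11.89 and 12.07 against 11.78, 11.81 and 11.16. The difference of -0.35 (standard error 0.21, limma adjusted p = 0.686) rested on degenerative pool C and was -0.14 without it.

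CTSS, a cathepsin that is abundant in antigen-presenting cells, was between 4.91 and 5.18 in blastocysts and at 8.96, 4.02 and 5.11 in degenerative pools A, B and C. A single pool was thus far above the other 5, and the difference of 0.97 had a standard error of 1.39 (limma adjusted p = 0.811) and was -0.50 without it. Of 10 leukocyte markers 7 had a probe set, and PTPRC, ITGAM and TYROBP were at the floor in all pools. The summed level of the 7 on the linear scale was lowest in degenerative pool A, at 45.1, where it was 101 to 134 in blastocysts. It followed AIF1, which was at 3.12 in that pool and between 5.85 and 6.50 in the other 5. Of the 4 tested leukocyte markers, 2 were lower and 2 higher on average in degenerative embryos. CSF1R was higher in every degenerative pool, at 3.54, 3.92 and 3.78 against 3.31 to 3.52 in blastocysts. The gap between its groups was only 0.02, close to the floor (limma adjusted p = 0.563). It was the only 1 of the 4 separated in this direction (25%), against 8.99% of all genes. CD14 differed by 0.63 and CD68 by -0.47, both below 5 on average in both groups. The part of leukocytes in the level of CTSS was not tested. CTSD, the aspartic protease of lysosomes, was lowest in the same pool, at 8.46 in degenerative pool A against 10.57 and 10.09 in the other degenerative pools and 10.25 to 10.57 in blastocysts, a difference of -0.76 (limma adjusted p = 0.737) that was -0.14 without that pool. CTSB, a cysteine protease found in most cells, differed by 0.01 with an interval of -0.53 to 0.55, and TPP1 and CTSZ by -0.47 and -0.16, which became 0.12 and 0.19 without degenerative pool A.

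Of the 9 glycosidases with a probe set, 2 were lower and 7 higher, with a median of 0.21, and none passed the test. This balance leaned on degenerative pool A, without which 4 were lower and 5 higher and the median was 0.01. GUSB, beta-glucuronidase, which removes glucuronic acid from glycosaminoglycans, was at 10.69, 11.01 and 11.28 in blastocysts and at 12.26, 11.85 and 11.52 in degenerative embryos. Its groups were 0.24 apart, and the difference was 0.88 (standard error 0.25, 95% interval 0.22 to 1.54, unadjusted p = 0.0193, limma adjusted p = 0.532).

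FUCA1, which removes fucose, was at 12.38, 12.17 and 12.14 against 12.25, 12.01 and 11.64, a difference of -0.26 (limma adjusted p = 0.728) that was -0.10 when degenerative pool C was left out and -0.41 when degenerative pool A was. NAGLU, an enzyme of heparan sulfate degradation, lay close to the floor in both groups, at 3.94, 4.19 and 4.18 against 4.20, 4.42 and 4.18, where differences are compressed. Its difference of 0.16 was 0.08 without blastocyst pool A. GAA, which degrades glycogen, and MAN2B1, an alpha-mannosidase, were also below 5 on average in both groups, with differences of 0.59 and 0.68. MAN2B1 varied more between pools than between groups, at 5.83, 2.69 and 3.90 against 7.53, 4.12 and 2.81, and its difference was -0.67 without degenerative pool A. The other glycosidases, GLB1 (0.21), HEXA (0.15), NEU1 (-0.11) and MANBA (0.25), all had intervals that included 0.

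The sulfatases remove sulfate from lipids and glycosaminoglycans, and both that were measured had differences below 0 without passing the test. ARSB, which acts on dermatan and chondroitin sulfate, had the lowest difference of the list, -1.32 (standard error 0.88, limma adjusted p = 0.721). It was at 6.93, 4.13 and 4.02 in blastocysts and at 3.78, 3.75 and 3.60 in degenerative embryos. Without blastocyst pool A the difference was -0.37, so a single pool decided its size. ARSA, which acts on sulfatide, was at 6.87, 6.62 and 7.18 against 6.99, 7.03 and 6.54. The groups overlapped fully, and the difference of -0.03 changed sign when either pool C was left out, with 0.11 without blastocyst pool C and 0.12 without degenerative pool C.

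Among the lipid hydrolases and their activators, 4 of 5 were higher, with a median of 0.29, and none passed the test. The median was 0.12 when degenerative pool A was left out, 0.44 for blastocyst pool C and 0.50 for degenerative pool C. With both A pools left out, 3 were lower and 2 higher and the median was -0.02. SMPD1, acid sphingomyelinase, which makes ceramide from sphingomyelin, was at 8.41, 8.68 and 8.71 in blastocysts and at 9.93, 9.53 and 9.04 in degenerative embryos. The groups were 0.32 apart, and the difference was 0.90 (standard error 0.26, 95% interval 0.22 to 1.57, unadjusted p = 0.0193, limma adjusted p = 0.532). LIPA, the acid lipase that releases cholesterol and fatty acids from lipoprotein lipids, was at 6.20, 6.70 and 7.48 against 7.05, 7.66 and 7.36. Its groups overlapped, and the difference of 0.56 ranged from 0.26 without blastocyst pool A to 0.91 without blastocyst pool C.

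PSAP, the precursor of the saposins that present sphingolipids to their hydrolases, was at 11.94, 11.90 and 12.37 against 12.87, 12.27 and 11.93, a difference of 0.29 (standard error 0.29, limma adjusted p = 0.739) that was 0.03 without degenerative pool A. PPT1, which removes palmitate from proteins, was at 9.87, 10.40 and 10.21 against 10.45, 10.35 and 10.21. Its difference of 0.18 was 0.03 without blastocyst pool A and -0.02 without both A pools. ASAH1, acid ceramidase, which splits the product of SMPD1, differed by -0.19 with an interval of -0.76 to 0.39.

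The subunits of the proton pump were split evenly, with 4 lower and 4 higher and a median of -0.01, and none passed the test. The split was 6 lower and 2 higher without blastocyst pool B (median -0.11), and 5 and 3 without degenerative pool A (median -0.19). ATP6V1C1, a stalk subunit that links the catalytic head to the membrane sector, was at 13.15, 12.95 and 13.09 in blastocysts and at 11.97, 12.55 and 12.78 in degenerative embryos. The difference was -0.63 (standard error 0.23, 95% interval -1.23 to -0.02, unadjusted p = 0.0443, limma adjusted p = 0.577), and it was -0.40 without degenerative pool A. A separate probe set of ATP6V1C1 differed by -0.02 (95% interval -0.63 to 0.59), so the larger difference was seen with a single probe set. ATP6V1D, a subunit of the rotor, was tightly grouped at 13.02, 13.06 and 13.04 against 12.92, 12.87 and 13.01. Its difference of -0.11 (standard error 0.05, limma adjusted p = 0.635) was small, and its groups overlapped once each array was centred on its median.

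ATP6V0D1, which joins the rotor to the membrane sector, was at 11.18, 11.01 and 10.98 against 11.86, 11.70 and 11.03, a difference of 0.47 (standard error 0.24, limma adjusted p = 0.643) that was 0.31 when degenerative pool A was left out and 0.72 when degenerative pool C was. ATP6V1E1, a peripheral stalk subunit, was at 13.67, 13.52 and 13.70 against 13.54, 13.83 and 13.68. Its difference of 0.05 had a narrow 95% interval, -0.21 to 0.32, and was -0.02 without degenerative pool B. The other subunits were ATP6V1A (-0.07), which holds the catalytic site, ATP6V1B2 (-0.53), ATP6V1H (0.10) and the accessory protein ATP6AP1 (0.40). All of their intervals included 0.

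TFEB, the transcription factor that activates many lysosomal and autophagy genes when it enters the nucleus, was at 7.33, 8.14 and 7.97 in blastocysts and at 7.24, 7.36 and 8.15 in degenerative embryos. The groups overlapped, and the difference was -0.23 (standard error 0.35, 95% interval -1.15 to 0.69, limma adjusted p = 0.826), or -0.06 when degenerative pool A was left out and -0.51 when degenerative pool C was. TFEB is regulated largely through its location in the cell, which mRNA levels do not show.

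**Figure D3:**
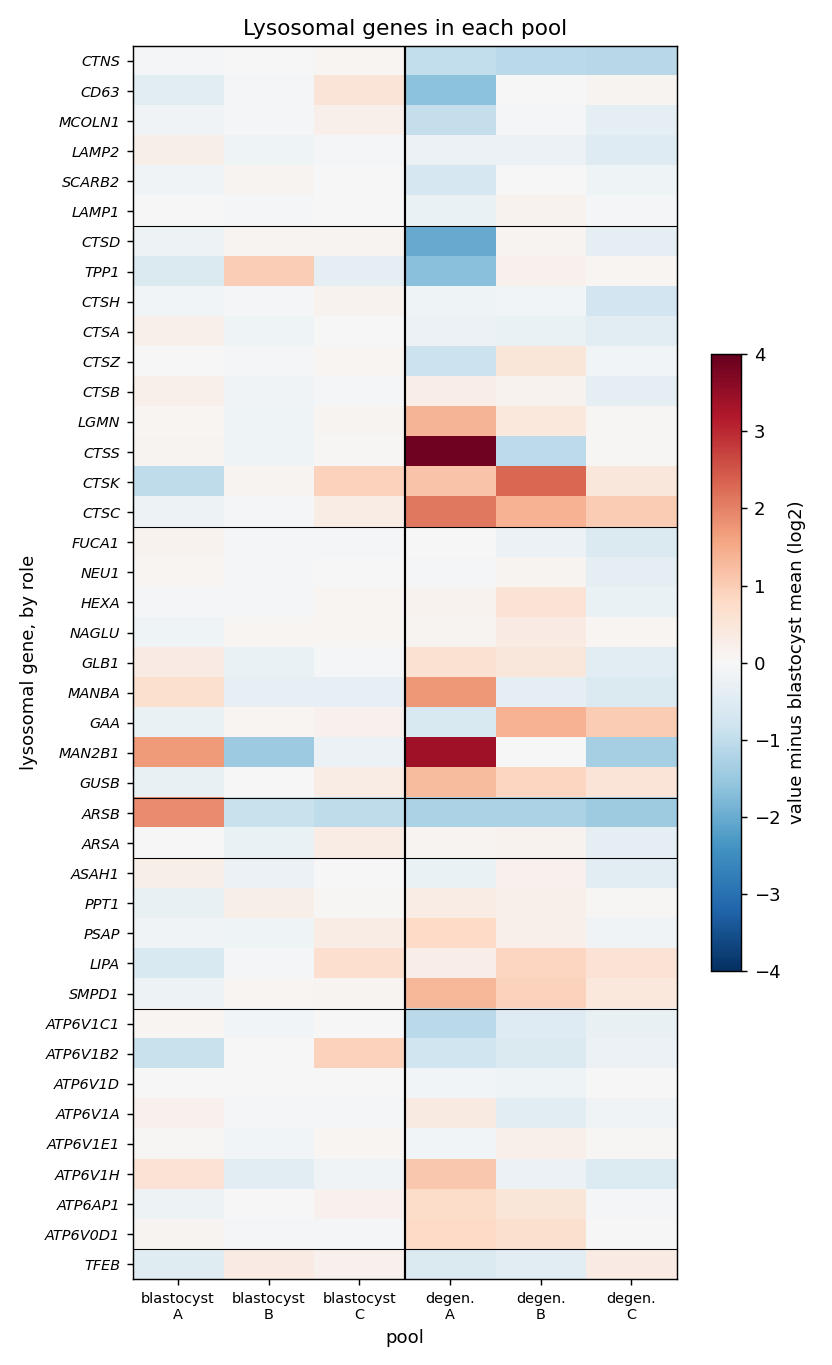
Value of each of the 41 lysosomal genes (y axis, by role) in each of the 6 pools (x axis), as the difference from the blastocyst mean on the log2 scale (colour, from blue for lower to red for higher). CTNS is lower in all 3 degenerative pools, CTSS is far higher and CTSD far lower in degenerative pool A than in the other pools, and MAN2B1 varies within both groups.

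The lysosomal genes varied more among degenerative than among blastocyst pools, as did most genes on the arrays. The SD was larger in degenerative embryos for 31 of the 41 (75.6%, against 71.2% of all genes), and the median SD was 0.404 against 0.192 in blastocysts. Degenerative pool A was more than 1 log2 unit away from the mean of the other degenerative pools for 10 lysosomal genes (24.4%, against 29.5% of all genes). Pool A was the highest of the 6 pools for 15 lysosomal genes, CTSC, GUSB and SMPD1 included (36.6%, against 33.2% of all genes). It was the lowest for 10 (24.4%, against 32.7%). Degenerative pool C was the lowest of the 6 for 14 (34.1%, against 20.4% of all genes). For CTSC, GUSB and SMPD1, pool A was the highest and pool C the lowest of the degenerative pools.

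**Figure D4:**
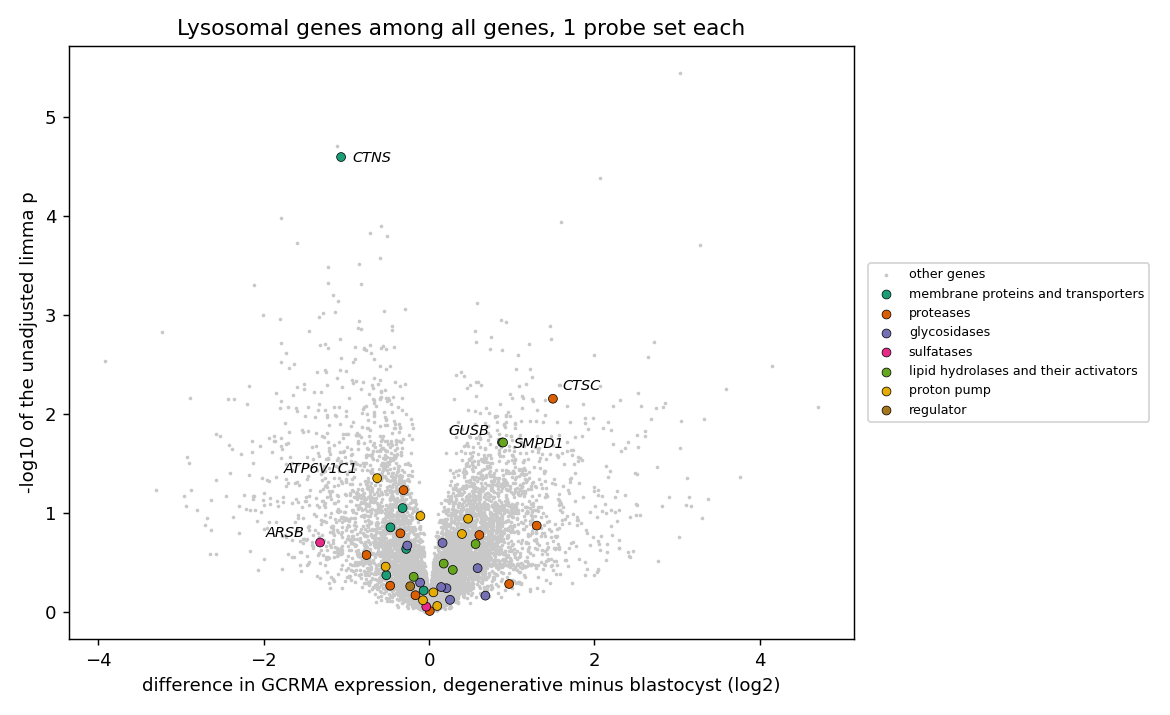
Difference in GCRMA expression (x axis, log2, degenerative minus blastocyst) and -log10 of the unadjusted limma p (y axis) for the 8189 genes, with lysosomal genes coloured by role and other genes in grey. CTNS lies near the top at a difference of -1.06, and the other lysosomal genes lie within the cloud of all genes.

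For 7 of the members several probe sets could be set against each other. LAMP1 (-0.08 and -0.07) and LAMP2 (-0.32 and -0.19) had differences of the same sign with both probe sets, as did PSAP with all 4 (0.08 to 0.33). The 4 tested probe sets of CTSB ranged from -0.26 to 0.53 and those of ATP6V1A from -0.07 to 0.20. GLB1 differed by 0.21 with its brighter probe set and by -0.09 with one near the floor. Every one of these probe sets had an interval that included 0, apart from the brighter one of ATP6V1C1. CTNS had a single probe set, so its difference could not be compared with another.

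**Figure D5:**
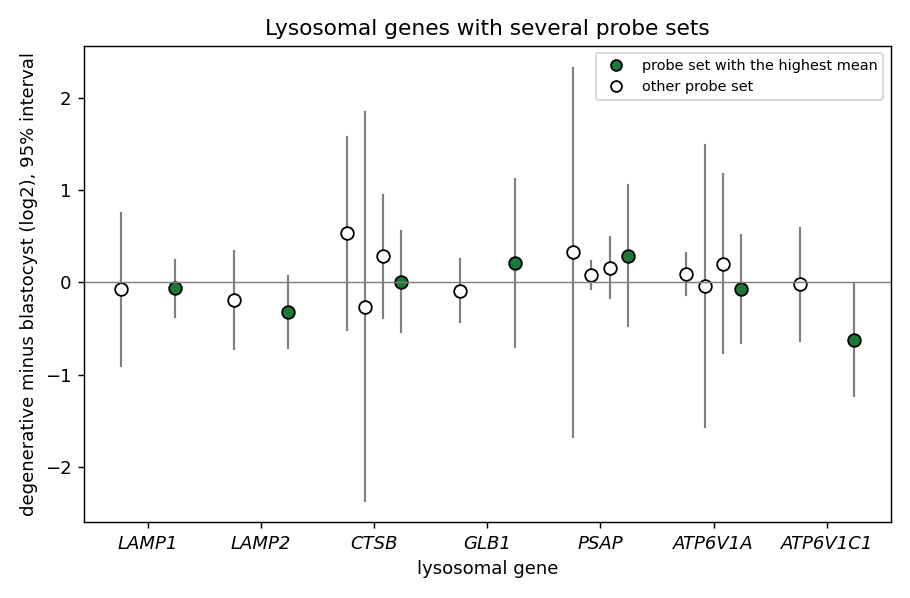
Difference (y axis, log2, degenerative minus blastocyst) with its 95% interval from limma for each tested probe set of the 7 lysosomal genes with more than 1 (x axis). Filled points are the probe sets with the highest mean. The probe sets of ATP6V1C1 lie at -0.63 and -0.02, and those of CTSB span -0.26 to 0.53.

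Genes that work with these members were taken from lists of the lysosomal pathway, and none of them was called by limma. Of 23 further genes, mostly lysosomal hydrolases, 10 were lower and 13 higher. SAM at 25% called 3 of them lower (13.0%, against the 4.73% of all genes given above) and 1 higher (4.35%, against 0.501%). The latter was PCYOX1, prenylcysteine oxidase, which is not a hydrolase. It was at 6.85, 7.04 and 7.55 in blastocysts and at 8.20, 8.19 and 8.20 in degenerative embryos (difference 1.05, limma adjusted p = 0.423). NAAA, which hydrolyses N-acylethanolamines, differed by -1.74 (limma adjusted p = 0.492). Of 22 further membrane proteins, 10 were lower and 12 higher, and SAM at 25% called 3 lower (13.6%, against 4.73%) and 0 higher: the cation channel MCOLN2 (-0.80), CLN3 (-0.73) and the cholesterol transporter NPC1 (-0.53). The even split of this larger list contrasts with the 6 lower members above, although the difference between the lists was not tested. Of 12 further pump subunits, 9 were lower and 3 higher, and none was called by SAM at 25%.

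Delivery of enzymes to the lysosome was represented by 24 genes, 11 lower and 13 higher. SAM called VPS41, part of the complex that fuses late endosomes with lysosomes, at 15% and 25% (4.17% of the list at 25%, against 4.73%). VPS41 was at 7.40, 7.43 and 7.39 in blastocysts and at 7.14, 7.11 and 7.11 in degenerative embryos. The difference was small, -0.29 (standard error 0.04, limma adjusted p = 0.358), with a very narrow spread in both groups. NAGPA, the enzyme that uncovers the mannose 6-phosphate tag of lysosomal hydrolases, differed by 0.85 (limma adjusted p = 0.514).

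Autophagy genes were lower in 12 and higher in 23 of 35, with a median of 0.17. SAM at 25% called ATG5 (-0.88) and ATG4A (-0.58) lower and ATG14 (0.98) higher, and their adjusted p from limma was 0.451, 0.552 and 0.470. The 2 lower calls are 5.71% of the list, near the 4.73% of all genes, and the higher one is 2.86% against 0.501%. ATG5 conjugates to ATG12 in the elongation of the autophagosome, and ATG14 directs the lipid kinase that starts it. Of the 18 TFE factors and mTORC1 components, 8 were lower and 10 higher, none with an unadjusted p under 0.05. Of 11 genes that handle cystine, cysteine and glutathione, 5 were lower and 6 higher, with a median of 0.00. CBS, which starts the synthesis of cysteine from homocysteine, differed by -0.95 (limma adjusted p = 0.616), with no overlap between its groups, and none of the 11 had an unadjusted limma p under 0.05. SAM at 25% called 1 of them lower (9.09%, against 4.73%), GGT1, a glutathione hydrolase, which lay close to the floor at 2.16, 2.21 and 2.19 in blastocysts and 2.13 in each degenerative pool.

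Markers of the cell types of the embryo were measured in both groups, and none was called by limma. Of the trophectoderm markers 4 of 9 had a probe set: KRT18, a keratin, lay between 15.2 and 15.7 in the 6 pools and KRT8 and TEAD4 differed by -0.04 and 0.02, whereas ELF5 differed by -1.10 and was at 2.90 in degenerative pool A against 5.35 to 6.19 in blastocysts. Of 8 genes listed as markers of the inner cell mass, 2 had a probe set, and both were higher on average in degenerative embryos. POU5F1 differed by 0.48 (limma adjusted p = 0.602), with 12.3 to 12.6 in blastocysts and 12.6 to 13.3 in degenerative embryos. SOX2 differed by 1.03 (limma adjusted p = 0.601), and its groups overlapped. Which cells of these embryos held POU5F1 or SOX2 RNA was not tested. Of the 7 measured hypoblast markers, 2 were lower and 5 higher on average, and the groups overlapped for each of them. GATA4 differed by 1.17 (standard error 0.77, limma adjusted p = 0.718) and COL4A1 by 0.62 (limma adjusted p = 0.625). The others were closer together, with GATA6 at -0.05, PDGFRA at -0.03, APOA1 at 0.13, HNF4A at 0.15 and FN1 at 0.23. Whether the groups differed in their share of these cell types was not tested. The part of cell types in the values of lysosomal genes was not tested.

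Of the cells that could adhere to embryos, cumulus cells and spermatozoa were sought with 11 and 8 annotated markers. AMH, FOXL2 and INHA of the former and PRM2, TNP2, ODF1 and ACR of the latter were at the floor in all pools. The other spermatozoa markers were not: ODF2 was at 10.23 to 10.95, TNP1 at 4.43 to 7.42, PRM1 at 3.43 to 4.06 and AKAP4 at 2.13 to 2.54. ODF2 differed by -0.44 without overlap between the groups (limma adjusted p = 0.545). SAM at 25% called it lower (25% of the 4 tested spermatozoa markers, against 4.73% of all genes). Of these 4, 2 were lower and 2 higher on average. ODF2 made up 96.0% of the summed linear level of the spermatozoa markers in degenerative pool A. The source of the ODF2 RNA was not tested. The summed linear level of the cumulus and granulosa cell markers was 1396 to 2062 in blastocysts and 1950 to 4120 in degenerative embryos, highest in degenerative pool A. HAS2 made up 86.8% of the sum in that pool, while PTX3 was at the floor there against 8.36 and 7.22 in degenerative pools B and C, and STAR was at 6.46 against 9.15 and 9.13. Of the 9 tested cumulus and granulosa cell markers, 4 were lower and 5 higher. INHBA was at 3.71, 6.64 and 7.68 in blastocysts and at 8.70, 9.03 and 7.84 in degenerative embryos (difference 2.51, limma adjusted p = 0.624). CYP19A1 went the other way, at 2.60, 4.87 and 6.69 against 2.62, 2.55 and 2.75 (difference -2.08, limma adjusted p = 0.649). The part of these cells in the values of lysosomal genes was not tested either.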

How the data were processed

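Deposited were log2 expression values, computed by the authors with GCRMA, whose version is 2.14.1 per the submitters' processing notes, with background correction by probe sequence, quantile normalization and median polish. Single probe signals and detection calls were not used here. The methods describe a further round of amplification during labeling, whereas the labels name a single round. Control probe sets (20) and those without variation between arrays (5079) were removed, leaving 18937 that were fitted in limma (version 3.58.1, R 4.3.3, functions lmFit and eBayes). P-values were adjusted by Benjamini-Hochberg and called up to 0.15, the rate of the study's methods. SAM was rebuilt from its description over the 20 relabelings of the pools, with a fudge factor of 1.03e-08. Both were run on simulated data with shifts larger than any difference of the members. Only the limma output was checked there against the known shifts. The median of the tested values was 6.35 to 6.48, and 27.4% to 28.6% of an array's probe sets lay within 0.01 of the floor. Arrays have no read depth, and the number of pools limits the precision.

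Gene names were those of the platform's annotation. A check of them by the ARS-UCD2.0 gene table changed 0 symbols. Of the tested probe sets 11002 had a single symbol, 64 several and 7871 none. Only those with a single symbol were named. Sequences were not used here, and positions of that table served only to find the neighbours of CTNS. Members, lists and tests were chosen with earlier results of these data known.

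Values by pool were given for members whose groups did not overlap and, by role, for the 3 members with the smallest p and that with the highest mean. CD63, CTSS, CTSD and MAN2B1 were added after their values were seen. From each other list up to 3 genes of the smallest p were named, and NPC1 and GGT1 were added for their SAM calls. No sample was dropped or imputed. No source says what the pool letters stand for. Across probe sets, pools of the same letter deviated together from their group means (r = 0.373 for A, 0.180 for B and 0.275 for C), so a fit with the letter as a replicate block was compared, although blastocyst pool C correlated more with degenerative pool B (0.374). Median centring, a filter on dim probe sets, leaving out pools, other variance models and other choices of probe set were tried.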

Additional observations from a re-analysis of the deposited data

How the results depend on the processing

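The difference of CTNS was below 0 under all settings run, from -1.13 to -1.02. Limma still called it with array weights (adjusted p = 0.0575) and without degenerative pool A, and SAM called it at 15% and 25%. It was also called with the mean of all probe sets of a gene and with the lowest-p probe set of each gene. CTNS has a single probe set, so these choices left its values unchanged and say nothing on its call. The call was lost after centring each array on its median (-1.03, adjusted p = 0.276), with a mean of at least 5 required in a group (-1.06, adjusted p = 0.326), with pools paired by letter as a replicate block (-1.06, adjusted p = 0.491), without both A pools (-1.13, adjusted p = 0.186) and with trended, robust variances (-1.06, adjusted p = 0.454), and the number of members called was then 0. Leaving out single pools gave -1.10 to -1.02 and 0 to 1 members called. The replicate block changed no other call among the members.

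Members whose pools did not overlap numbered 7 to 13 lower and 3 to 10 higher when single pools were left out, and 14 and 5 without both A pools. In all of these settings, fewer pools make separation easier for any gene. The shares of all genes with the same pools left out are not given, so nothing about the members can be read from these counts. Of the 41 members, 14 had a difference that turned sign when some single pool was left out. Among those with values by pool, single pools left out gave -0.17 to 0.12 for ARSA, -0.83 to 0.051 for CD63, -0.50 to 1.97 for CTSS, -0.67 to 1.68 for MAN2B1 and -0.024 to 0.13 for ATP6V1E1. Without both A pools PPT1 turned to -0.023, PSAP to -0.034 and CTSS to -0.44. With array weights ARSA turned to 0.019 and CTSS to -0.32. The median of the members stayed within 0.138, the spread of the pools' medians, between -0.10 and 0.05. The cause of these shifts was not tested. Precision is limited by 3 pools a group, and for dim probe sets such as NAGLU, GAA and MAN2B1 by the floor.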
